A study of Mus musculus with 6 samples.

Results

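The Ets family transcription factors of endothelial cells were followed in CD31-sorted mammary cells, with and without Ets2 in the surrounding fibroblasts. The family was taken as 10 genes, namely Ets1, Ets2, Erg, Fli1, Elk3, Elk1, Etv6, Elf1, Elf2 and Gabpa. All 10 were measured, by 27 probe sets that each name exactly 1 gene, out of 45037 probe sets tested and 18193 genes measured in all. A gene is represented below by its brightest probe set, the one of highest mean over the 6 arrays, with the others given beside it. The 3 deleted samples came from PyMT;Fsp-Cre;Ets2db/loxP mice and the 3 control samples from PyMT;Ets2db/loxP mice. Both groups were FVB/N mice aged 9 weeks and carried the PyMT oncogene, which drives mammary tumors from the epithelium. Both also carried 1 conventional Ets2 knockout allele that removes the DNA-binding domain (db) and 1 conditional allele (loxP), so the cells of both groups held at most 1 intact Ets2 allele. Only the deleted mice carried Fsp-Cre, in which the promoter of Fsp1 (S100a4), a gene of fibroblasts, drives the recombinase. The comparison addressed how loss of Ets2 in tumor fibroblasts affects the endothelial cells beside them.

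Values are log2 signals from Robust Multichip Average (RMA) processing, in which 1 unit is a factor of 2, and a positive difference means a higher mean in deleted samples. The median probe set read 7.03. Probes differ in how brightly they report a transcript, so differences were taken between samples at the same probe set. Bright and dim place a reading beside that median only and do not rank genes by expression. All 8 endothelial markers averaged above that median. Cdh5, the cadherin of endothelial junctions, read 11.47, 10.55 and 11.24 in deleted samples, against 11.16, 11.17 and 10.59 in control samples. Epithelial markers were bright as well, and Epcam read 12.50, 12.44 and 12.44 in deleted samples, against 12.51, 12.54 and 12.00 in control samples. Epcam was the 1 of the 9 epithelial markers with a higher mean in deleted samples. The other 8 were lower, and the median difference of the list was -0.14. A bulk measurement of this kind cannot tell fewer cells of a type from less RNA per cell. In limma 0 probe sets of the array had an adjusted p under 0.05 (the smallest was 0.9999), and 934 had an unadjusted p under 0.05.

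Ets factors share a winged helix-turn-helix domain, the Ets domain, that binds DNA at a GGAA core, and neighboring bases and partner proteins decide which member acts at a site. In endothelium Erg and Fli1 maintain junctional and lineage genes, and Ets1 and Ets2 are activated by the Ras-ERK pathway. Elk1 and Elk3 bind with serum response factor, Etv6 is a repressor, Elf1 and Elf2 form a further subfamily, and Gabpa is the DNA-binding subunit of GABP, a regulator of mitochondrial genes. Ets1 lies next to Fli1 among the protein-coding genes of mouse chromosome 9, and Ets2 next to Erg on chromosome 16.

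The promoters of 4 of these genes are shown because Ets factors may bind the promoters of their own family. Ets2 is the gene deleted in the fibroblasts, and Erg differed from the rest in its pattern across arrays at its brightest probe set. Etv6 and Elf2 had the only probe sets whose groups did not overlap. Each window holds the 150 bases before the start of the gene in RefSeq on GRCm38.p6, written 5′ to 3′ on the strand of the gene, with GGAA and its reverse complement TTCC in capitals. The windows are chr16:95702257-95702406 (plus strand) for Ets2, chr16:95586594-95586743 (minus strand) for Erg, chr6:134035550-134035699 (plus strand) for Etv6 and chr3:51340645-51340794 (minus strand) for Elf2.
Ets2: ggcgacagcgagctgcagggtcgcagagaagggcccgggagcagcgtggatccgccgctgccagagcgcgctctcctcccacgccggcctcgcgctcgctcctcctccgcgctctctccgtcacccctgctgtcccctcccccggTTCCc
Erg: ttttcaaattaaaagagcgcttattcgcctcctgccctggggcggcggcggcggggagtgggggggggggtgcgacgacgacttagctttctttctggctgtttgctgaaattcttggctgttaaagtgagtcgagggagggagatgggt
Etv6: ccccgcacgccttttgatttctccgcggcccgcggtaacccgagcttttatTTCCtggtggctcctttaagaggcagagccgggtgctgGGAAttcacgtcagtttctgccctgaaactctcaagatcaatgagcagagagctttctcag
Elf2: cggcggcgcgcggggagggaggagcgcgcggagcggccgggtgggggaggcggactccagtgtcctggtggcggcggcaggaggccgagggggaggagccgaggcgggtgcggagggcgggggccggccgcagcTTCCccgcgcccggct
In the windows shown the core was found 1 time for Ets2, 0 times for Erg, 2 times for Etv6 and 1 time for Elf2. Further starts in RefSeq had 3 and 2 matches for Erg and 3 for Elf2. The RefSeq table held 12 promoters for 8 of the 10 genes, and 10 of the 12 held the core. Such a match is common, since 80.8% of the 32851 promoter windows of the table hold GGAA or TTCC, with a median of 2 matches. The longer site CCGGAAGT, searched on both strands, was in 0 of the 12 promoters and in 2.4% of all windows. These letters describe the windows only, and binding was not measured.

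Ets2 itself was read by 3 probe sets. Its brightest, 1416268_at, read 14.43, 14.30 and 14.50 in deleted samples, against 14.48, 14.41 and 14.26 in control samples. The groups overlapped, and the deleted group held the highest array and the control group the lowest. The difference of 0.02 had a 95% interval from -0.30 to 0.35 (limma), or folds from 0.811 to 1.28. The dimmer probe sets 1447685_x_at and 1437809_x_at also differed by 0.02 each. They followed the brightest across the 6 arrays, with a Pearson r of 0.84 and 0.92 (n = 6 arrays, given as a description). The deletion was aimed at fibroblasts, and where these probes lie relative to the deleted exons was not tested, so the genotype labels cannot be checked from these values.

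Ets1, the closest relative of Ets2 and like it a nuclear target of ERK, also read nearly the same in both groups. Its brightest probe set, 1426725_s_at, read 13.40, 13.30 and 13.63 in deleted samples, against 13.38, 13.53 and 13.42 in control samples, so that the deleted arrays enclosed the control arrays. The difference of 0.00 had a 95% interval from -0.34 to 0.34 (limma). Of its other probe sets, 1422028_a_at differed by 0.35, 1422027_a_at by 0.27 and 1452163_at by 0.10. The difference of 1422028_a_at came with a low control replicate 3, since the probe set read 11.94, 11.78 and 12.19 in deleted samples, against 12.15, 11.88 and 10.84 in control samples. Without that array 1422028_a_at differed by -0.04 and 1422027_a_at by -0.11.

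**Figure D1:**
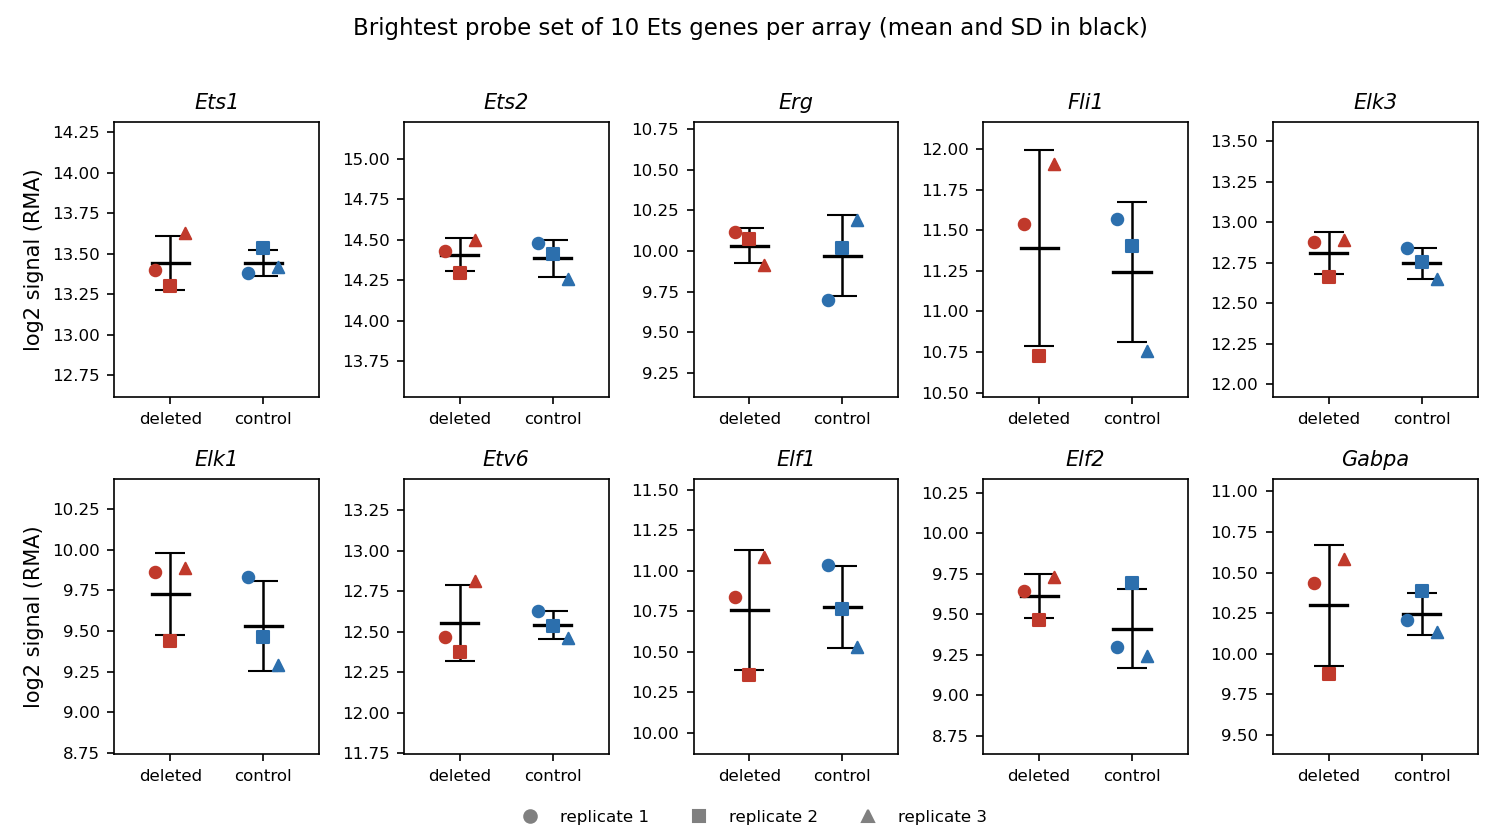
Log2 signal of the brightest probe set of the 10 Ets genes in each array, with deleted samples left (red) and control samples right (blue), and the mean and SD (n = 3 each) in black. Each panel spans the same number of log2 units; the groups overlap in all 10 panels, and deleted replicate 3 is the highest array in 9.

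Erg and Fli1, the pair most closely tied to endothelial identity, gave different pictures by probe set. Erg at its brightest probe set, 1440244_at, read 10.11, 10.07 and 9.91 in deleted samples, against 9.70, 10.02 and 10.19 in control samples, and differed by 0.06 (limma, 95% interval -0.34 to 0.46). Its second probe set, 1425370_a_at, read 7.63, 9.65 and 8.70 in deleted samples, against 9.41, 9.42 and 8.82 in control samples. Here the deleted samples scattered over 2.02 log2 units and included both the lowest and the highest array. They averaged 8.66 ± 1.01, against 9.22 ± 0.34 in control samples (SD, n = 3 each), which gives a difference of -0.56 (SE 0.48). That value was -1.05 without deleted replicate 2 and -0.05 without deleted replicate 1, so single arrays set its size. The Erg probe sets did not run together across the 6 arrays (r = -0.36), and which Erg transcripts each of them reads was not tested.

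Fli1 was the most variable of the 10 genes. Its brightest probe set, 1433512_at, read 11.54, 10.73 and 11.91 in deleted samples, against 11.57, 11.40 and 10.75 in control samples. The lowest array of each group lay near the other, and the deleted samples held both extremes. They averaged 11.39 ± 0.60, against 11.24 ± 0.43 in control samples (SD, n = 3 each), and the difference of 0.15 had a 95% interval from -0.66 to 0.96 (limma). The second probe set, 1422024_at, followed it across the 6 arrays (r = 0.99) with a wider spread. It read 9.29, 7.76 and 9.80 in deleted samples, against 9.45, 9.10 and 7.93 in control samples, and its SD within groups of 0.94 was larger than that of 99.4% of all tested probe sets. With 1 array left out the difference of the brightest ranged from -0.11 to 0.48.

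Elk3 and Elk1, the ternary complex factors that act with serum response factor, averaged higher in deleted samples at most of their probe sets, with overlapping groups at each. Elk3, also known as Net, at its brightest probe set, 1448797_at, read 12.88, 12.66 and 12.89 in deleted samples, against 12.84, 12.75 and 12.65 in control samples, a difference of 0.06. Elk3 had the tightest probe set of the family, 1435143_at, with an SD within groups of 0.05 and readings of 11.86, 11.81 and 11.89 in deleted samples, against 11.73, 11.84 and 11.78 in control samples. It differed by 0.07, and only control replicate 2 reached into the deleted range. The Elk3 probe sets 1417662_at and 1445886_at differed by 0.02 and 0.42, and 1445886_at ranged from 0.10 to 0.73 with 1 array left out.

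Elk1 at its brightest probe set, 1421897_at, read 9.86, 9.44 and 9.89 in deleted samples, against 9.83, 9.46 and 9.29 in control samples, and differed by 0.20 (limma, 95% interval -0.28 to 0.68). Control replicate 1 lay with the upper deleted arrays, and deleted replicate 2 with the lower control arrays. The Elk1 probe set 1421896_at differed by 0.33, and 1446390_at, which read 3.33 at most and so lay near the lower end of the scale, by -0.03.

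Etv6, a repressor needed for blood vessel and blood cell development, had 2 probe sets that behaved differently. The brightest, 1434880_at, read 12.47, 12.37 and 12.82 in deleted samples, against 12.63, 12.53 and 12.46 in control samples, and differed by 0.01 (limma, 95% interval -0.37 to 0.39). The dimmer, 1423401_at, read 9.08, 8.54 and 8.67 in deleted samples, against 8.36, 8.26 and 8.24 in control samples. All 3 deleted samples lay above all 3 control samples. They averaged 8.76 ± 0.28, against 8.29 ± 0.06 in control samples (SD, n = 3 each), which gives a difference of 0.48 (SE 0.17) and a fold of 1.39. In limma its unadjusted p was 0.029 and its adjusted p 0.9999. The difference ranged from 0.32 to 0.59 with 1 array left out, and the Etv6 probe sets were unrelated across the 6 arrays (r = 0.02).

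Elf2, also called Nerf, and Elf1 belong to the Elf subfamily and have both been tied to the angiopoietin receptor gene Tek. Elf2 at its brightest probe set, 1418275_a_at, read 9.64, 9.46 and 9.73 in deleted samples, against 9.30, 9.69 and 9.25 in control samples, and differed by 0.20 (limma, 95% interval -0.20 to 0.60). Only control replicate 2 reached into the deleted range. Elf2 at its dimmest probe set, 1418276_at, read 7.82, 7.75 and 7.89 in deleted samples, against 7.69, 7.20 and 7.11 in control samples, so that the groups did not overlap but the nearest arrays of the groups lay close together. These deleted samples averaged 7.82 ± 0.07, against 7.33 ± 0.31 in control samples (SD, n = 3 each), and the difference of 0.49 (SE 0.18, a fold of 1.41) had an unadjusted p of 0.031 and an adjusted p of 0.9999 in limma. It ranged from 0.38 to 0.67 with 1 array left out. The Elf2 probe set 1428045_a_at differed by 0.15 with overlapping groups.

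Elf1, like Ets1, had a brightest probe set that averaged marginally lower in deleted samples. This probe set, 1417540_at, read 10.84, 10.35 and 11.08 in deleted samples, against 11.03, 10.76 and 10.53 in control samples, and differed by -0.02 (limma, 95% interval -0.56 to 0.52). The other, 1439319_at, differed by -0.24. Gabpa at its brightest probe set, 1450664_at, read 10.43, 9.87 and 10.59 in deleted samples, against 10.21, 10.39 and 10.14 in control samples. The 3 control samples lay close together, inside the range of the deleted samples. The Gabpa difference was 0.05, and that of 1450665_at was 0.20.

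**Figure D2:**
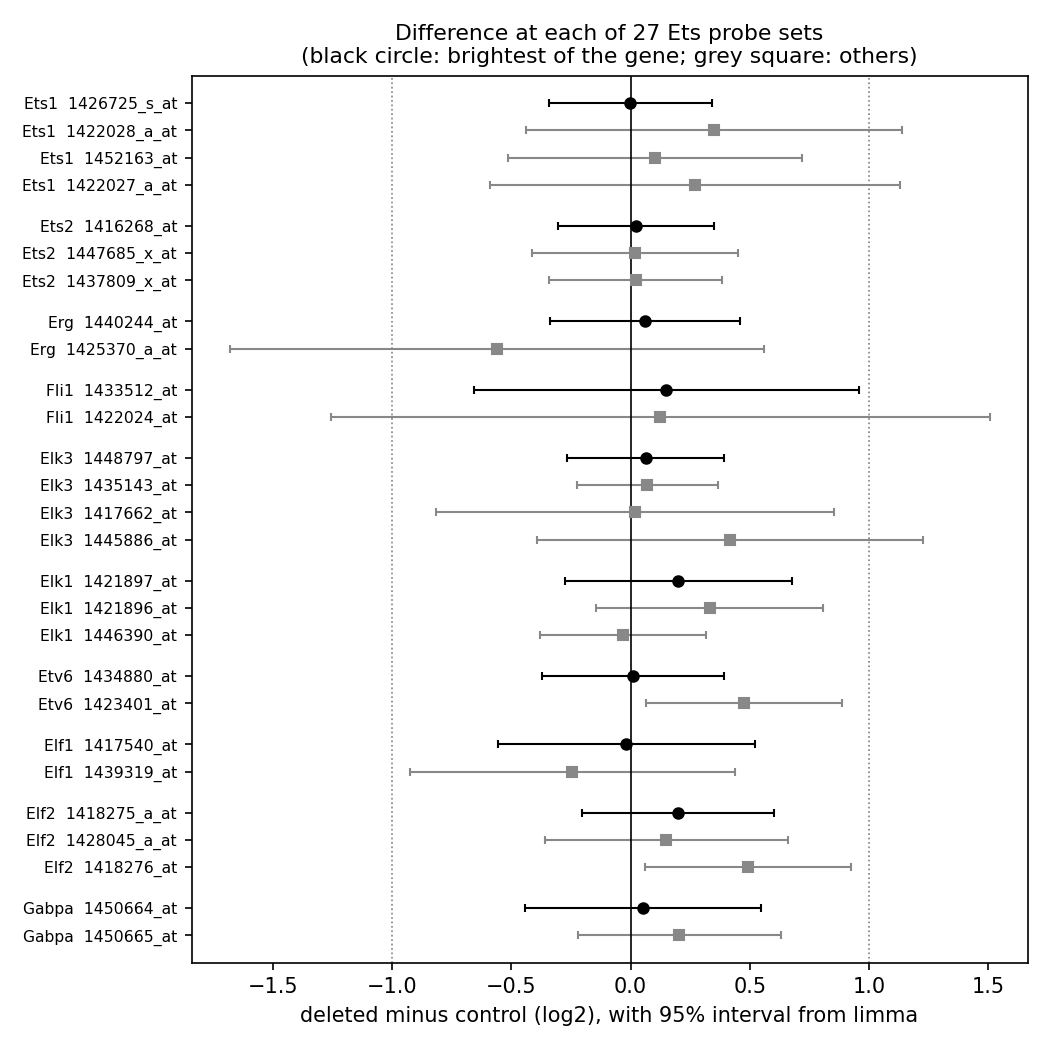
Deleted minus control difference (log2) of all 27 Ets probe sets with its 95% interval from limma, the brightest probe set of each gene as a black circle and the others as grey squares; dotted lines mark a factor of 2. The intervals of 25 probe sets include 0, and those of Etv6 1423401_at and Elf2 1418276_at lie above it before adjustment.

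In limma, 0 of the 27 probe sets had an adjusted p under 0.05, as did 0% of all tested probe sets. At an unadjusted p under 0.05 there were 2 of 27, both higher in deleted samples, against 2.07% of all probe sets in either direction and 0.977% higher. The fold over 2 with an unadjusted p under 0.05 that the study used was passed by 0 of 27, against 0.129% of all. The groups did not overlap at 2 of 27, which is 7.41%, near the 6.44% of all probe sets (3.61% higher). Both counts are the same probe sets, of Etv6 and Elf2, and at the 10 brightest probe sets each of these counts was 0, against 1.79%, 0.0934% and 6.07% of all genes at their brightest probe set. The count without overlap was 12 without deleted replicate 2 (18.7%), 4 without control replicate 1 (16.5%) and 5 without control replicate 2 (12.7%), each beside the share of all probe sets. That at an unadjusted p under 0.05 was 3 without deleted replicate 2 (3.6%), 1 without control replicate 1 (2.8%) or deleted replicate 3 (3.23%), and 0 without control replicate 2 (1.63%), control replicate 3 (2.14%) or deleted replicate 1 (1.7%). In all, 22 of 27 probe sets were higher and 5 lower, against 23756 of 45037 higher over all probe sets. At the brightest probe sets 8 of 10 were higher, against 9269 of 18193 genes. Probe sets of 1 gene are not separate observations, and the genes varied together across arrays. The 27 probe sets had a median difference of 0.07, against a median of 0.01 over all probe sets. Over the 10 brightest the median was 0.06, against 0.004 over all genes, and in 9 of the 10, Elf2 being the exception, the SD within groups was larger than the difference. That median ranged from -0.06 to 0.16 with 1 array left out.

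The limits these arrays place on a change can be read from the intervals. The 95% interval reached 0.33 log2 units to either side of the difference at the tightest of the 10 brightest probe sets and 0.81 at the widest, that of Fli1. The interval of every brightest probe set stayed within a factor of 2 in either direction. The median SD within groups of the 27 probe sets was 0.26, against 0.24 over all tested probe sets, so the family varied about as much as a typical probe set. All 10 brightest probe sets and 25 of the 27 read at or above the median signal.

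The genes varied more between arrays than between groups, and they varied together. At the brightest probe sets deleted replicate 3 was the highest array in 9 of 10 genes, against 14.7% of all probe sets. The exception was Erg, where deleted replicate 3 was the lowest deleted array and control replicate 3 the highest of all. The second Erg probe set, 1425370_a_at, did not show this pattern, with deleted replicate 1 lowest and deleted replicate 2 highest. Of the 27 probe sets, 23 read below their own mean in deleted replicate 2 and 25 in control replicate 3, against 2 in deleted replicate 3. The mean deviation of the 10 genes was 0.09, -0.21 and 0.23 in deleted samples, against 0.03, 0.03 and -0.17 in control samples, a spread within the deleted group that exceeded the distance between the groups.

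Pairs of genes were compared at their brightest probe sets. Ets2 and Fli1 had a Pearson r of 0.97 over the 6 arrays, Elk3 and Elk1 of 0.96 and Fli1 and Elf1 of 0.96. Erg was at -0.74 with Ets2 and -0.60 with Fli1, and was below 0 with 8 of the other 9 genes. These values are descriptions over 6 arrays that share tissue, sort and labeling. Many genes ran along the same profile, since 616 of 11287 genes at or above the median signal had an r over 0.9 with Ets2 and 520 with Fli1, against 188 with Erg and 50 with Ets1. Closest to Ets2 were Trappc8, a subunit of a vesicle tethering complex, Mob1b, of the Hippo pathway, and Becn1, of autophagy. Closest to Fli1 were Sh3d19, Tnfrsf21 and Vangl2, closest to Erg Mrpl37, Hnrnpab and Dusp12, and closest to Ets1 Vasn, Ttc5 and Lepr, each with an r between 0.967 and 0.998.

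**Figure D3:**
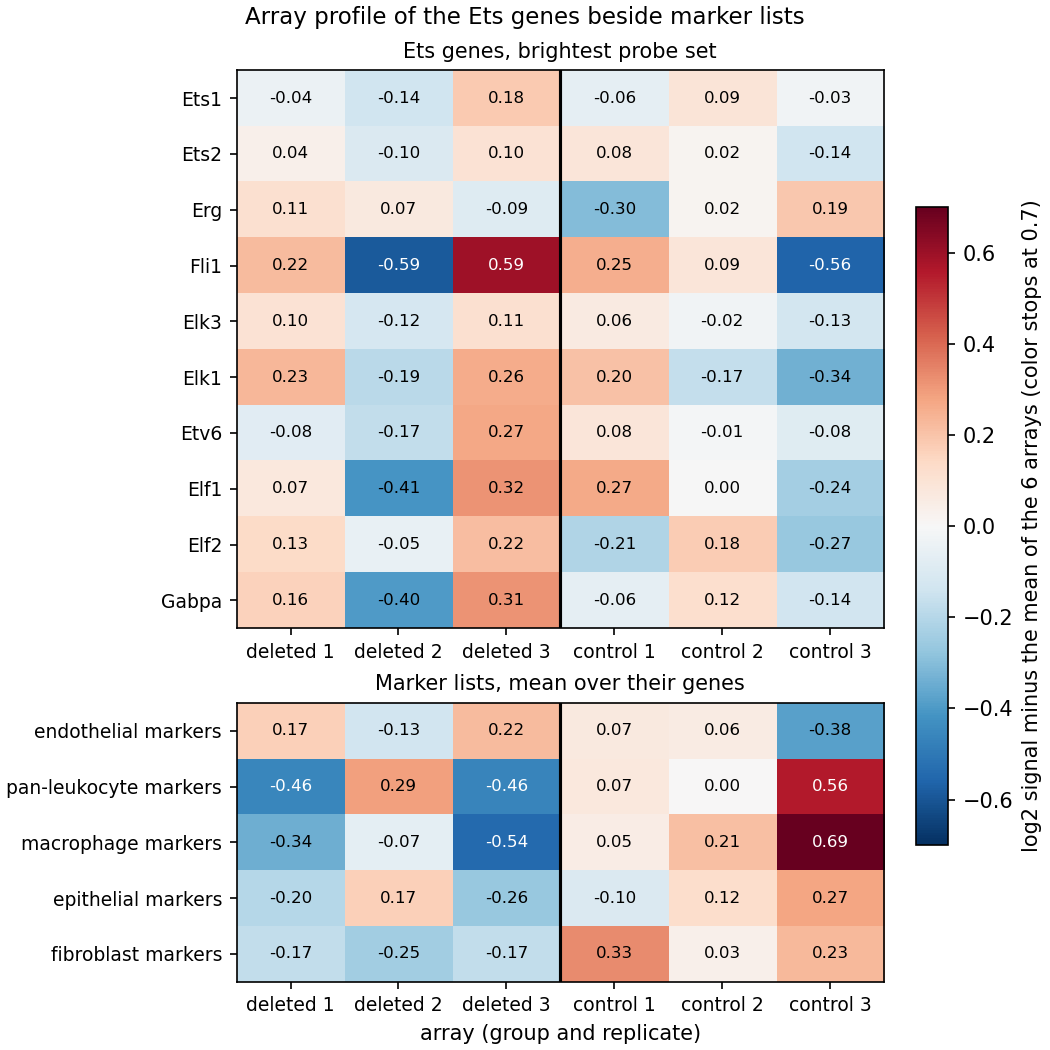
Log2 signal minus the mean of the 6 arrays for the brightest probe set of the 10 Ets genes (top) and for the mean of marker lists (bottom), with deleted arrays left of the line and control arrays right. Deleted replicate 2 and control replicate 3 are low at most Ets genes other than Erg and at the endothelial markers, and high at the pan-leukocyte markers.

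Markers of other cells moved with the same arrays. The mean deviation of the 8 endothelial markers was 0.17, -0.13 and 0.22 in deleted samples, against 0.07, 0.06 and -0.38 in control samples. That of the 8 pan-leukocyte markers was -0.46, 0.29 and -0.46 in deleted samples, against 0.07, 0.00 and 0.56 in control samples. The 2 arrays in which most Ets genes were low were thus those with the lowest endothelial and the highest leukocyte signal, in both groups. The 9 epithelial markers followed the leukocyte markers, at -0.20, 0.17 and -0.26 in deleted samples, against -0.10, 0.12 and 0.27 in control samples. The 3' minus 5' signal of the actin control probe sets, a measure of RNA quality, was 1.29, 1.14 and 1.03 in deleted samples, against 0.99, 1.09 and 1.67 in control samples, and was thus highest in control replicate 3. Their part in the values of the Ets genes was not tested.

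Other lists separated the groups where the Ets genes did not. The mean deviation of the 13 macrophage markers was -0.34, -0.07 and -0.54 in deleted samples, against 0.05, 0.21 and 0.69 in control samples. That of the 12 fibroblast markers was -0.17, -0.25 and -0.17 in deleted samples, against 0.33, 0.03 and 0.23 in control samples. Of the macrophage markers 12 of 13 had a lower mean in deleted samples, 7 at an unadjusted p under 0.05 in limma and 6 without overlap. Of the fibroblast markers 11 of 12 were lower, 3 at an unadjusted p under 0.05 and 4 without overlap. Over all genes 8924 of 18193 were lower, 1.79% had an unadjusted p under 0.05 and 6.07% had no overlap, and in neither list was an adjusted p under 0.05. Ptprc, the pan-leukocyte antigen CD45, differed by -0.43, Adgre1, which encodes the macrophage antigen F4/80, by -0.91 and Pdgfra, a receptor of fibroblasts, by -0.59. Ptprc was at -0.17 without control replicate 3, and Adgre1 at -0.56 without deleted replicate 3. The pericyte markers were the reverse, with 6 of 7 higher in deleted samples and a median difference of 0.22, which was 0.03 without deleted replicate 3. Macrophages, lymphocytes and epithelium also express Ets genes, and the part of such cells in the summed signal was not tested.

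The remaining Ets genes showed the family outside the 10. Of 16 further Ets genes 14 were measured, 9 higher and 5 lower, with a median difference of 0.05. At an adjusted p under 0.05 there were 0, at an unadjusted p under 0.05 there were 0 (against 1.79% of all genes), and all overlapped between the groups, also over their 30 probe sets. Those with the largest differences were Spic, an Ets factor of red pulp macrophages, at 0.71 (SE 0.42), Spib, of B and plasmacytoid dendritic cells, at 0.53 (SE 0.40), and Etv5, of the Pea3 subfamily, at -0.42 (SE 0.19). Etv5 read 10.51, 10.35 and 10.80 in deleted samples, against 11.22, 10.94 and 10.76 in control samples, with deleted replicate 3 just above control replicate 3. Without deleted replicate 1 Spic was at 0.25 and Spib at 0.22. The Spic probe set was dim, at a mean of 5.66 in deleted and 4.95 in control samples. The other Spic probe set differed by 0.12. The difference of Etv5 ranged from -0.54 to -0.30 with 1 array left out, and differences of -0.28 and -0.13 were read at its other probe sets.

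Of the Ets factors that mark other cell types, Spi1, Elf5, Ehf, Elf3 and Spdef were named after their values were seen. Spi1, which encodes PU.1 of macrophages and other myeloid cells, was dim, at 6.82, 6.13 and 5.84 in deleted samples, against 6.03, 5.94 and 6.25 in control samples. Of the epithelial factors, Elf5 and Ehf were bright, while Elf3 and Spdef lay near the median signal. Elf5 read 12.75, 12.88 and 12.47 in deleted samples, against 12.69, 12.80 and 13.02 in control samples, and Ehf read 11.88, 12.20 and 12.42 in deleted samples, against 12.43, 12.56 and 12.29 in control samples. Elf3 and Spdef averaged 6.96 and 7.13 in deleted samples, against 6.92 and 7.03 in control samples. Their differences of 0.04 and 0.10 were opposite in sign to those of Elf5 and Ehf. Spi1, Elf5 and Ehf differed by 0.19, -0.14 and -0.26, and the groups overlapped at each of these genes. The difference of Spi1 was -0.08 without deleted replicate 1.

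Ets factors act with coactivators, corepressors and the kinases above them. Of 20 partner proteins 17 were measured, 9 higher and 8 lower (median 0.02). The largest differences were those of Kat5, an acetyltransferase that binds Etv6, at 0.34, Sin3a, a corepressor scaffold, at 0.31, and Ldb1, an adaptor of transcription complexes, at 0.24. At the brightest probe sets Sin3a was the only partner whose groups did not overlap, at 8.70, 9.06 and 8.63 in deleted samples, against 8.56, 8.38 and 8.52 in control samples, with differences of 0.21 and 0.05 at its other probe sets. A dimmer Kat5 probe set, 1433980_at, had no overlap either and differed by 0.23. Without deleted replicate 1 Kat5 was at 0.20 and Ldb1 at -0.09, and without deleted replicate 2 Sin3a was at 0.18. Of the 20 genes of the Ras-ERK pathway 15 were measured, 11 higher and 4 lower (median 0.05). Here the feedback genes Dusp4, Spry1 and Dusp5 differed by 0.44, 0.35 and 0.19, and the kinase gene Map2k1 by -0.18. Without control replicate 3 Dusp4 was at 0.20 and Dusp5 at -0.22, and without deleted replicate 1 Spry1 was at 0.17.

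Map2k1, which encodes MEK1, was the 1 pathway gene whose groups did not overlap at its brightest probe set. It read 10.75, 10.76 and 10.70 in deleted samples, against 10.98, 10.88 and 10.87 in control samples. Groups without overlap occurred at 6.07% of all genes at their brightest probe set, so 1 of 17 and 1 of 15 lay close to the background. At the brightest probe sets 0 partner and 0 pathway genes had an unadjusted p under 0.05 in limma. Over all their probe sets there were 0 of 39 and 1 of 50, against 2.07% of all, and 2 of 39 and 2 of 50 did not overlap, against 6.44%. The 1 was a dimmer probe set of Spred2, an inhibitor of Ras signaling, 1441802_at, which was named after its values were seen and differed by 0.39 (unadjusted p 0.032).

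**Figure D4:**
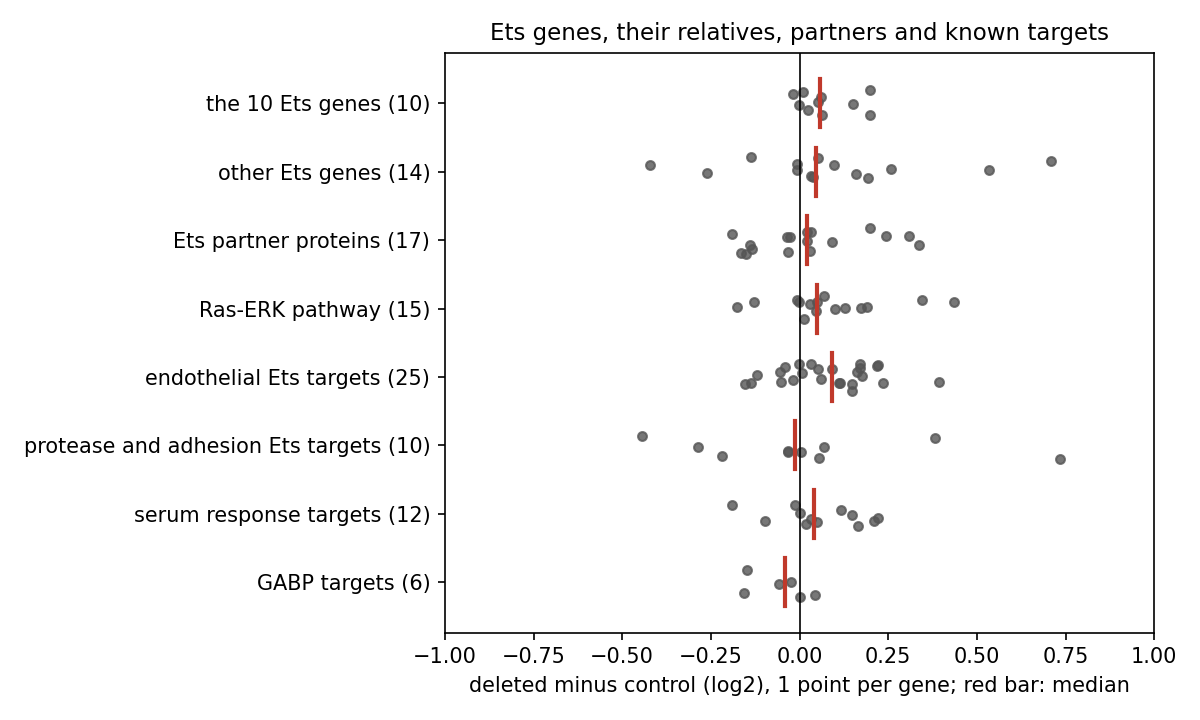
Deleted minus control difference (log2) at the brightest probe set of each gene for the 10 Ets genes and 7 related lists, with the number of genes measured in brackets and the list median as a red bar. The 10 Ets genes lie between -0.02 and 0.20, and each list median lies between -0.04 and 0.09.

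Genes that Ets factors are known to regulate stayed near 0 as groups. Of 25 endothelial targets, such as receptors and junction genes with Ets sites, 17 were higher and 8 lower, with a median difference of 0.09, and at the brightest probe sets 0 had an unadjusted p under 0.05 (1.79% of all genes). Pecam1, which encodes CD31 and was the sort marker, had the largest difference at 0.39 and read 11.93, 11.27 and 11.88 in deleted samples, against 11.58, 11.49 and 10.83 in control samples. Tie1, a receptor-like kinase, differed by 0.23 and Rhoj, an endothelial GTPase, by 0.22. Pecam1 was at 0.16 without control replicate 3, and Tie1 was at -0.06 and Rhoj at 0.10 without deleted replicate 1. Ecscr, an endothelial surface protein, read 13.23, 13.33 and 13.28 in deleted samples, against 13.19, 13.14 and 13.00 in control samples, a difference of 0.17, and was the only target of this list without overlap at its brightest probe set (6.07% of all genes). Over all 48 probe sets of the list 1 had an unadjusted p under 0.05 in limma and 2 did not overlap, against 2.07% and 6.44% of all probe sets. Angpt2 1459636_at, named after its values were seen, met both and differed by 0.53 (unadjusted p 0.020), while the brightest Angpt2 probe set differed by 0.17 with overlap. Angpt2 encodes an angiopoietin that binds Tek.

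Protease and adhesion targets, which Ets1 and Ets2 activate with AP-1, were measured for 10 of 12 genes, 5 higher and 5 lower (median -0.01). Plaur, the urokinase receptor, read 8.63, 8.58 and 8.59 in deleted samples, against 8.24, 8.31 and 8.11 in control samples. All deleted samples lay above all control samples, and the difference of 0.38 (SE 0.13) had an unadjusted p of 0.021 and an adjusted p of 0.9999 in limma. At the brightest probe sets 1 of 10 genes had an unadjusted p under 0.05 and 1 had no overlap, against 1.79% and 6.07% of all genes. Over all 20 probe sets of the list 1 met each rule, against 2.07% and 6.44% of all probe sets. The matrix metalloproteinases Mmp9 and Mmp3 differed by 0.73 (SE 0.45) and -0.44 (SE 0.55), with overlapping groups. Mmp9 averaged 7.58 in deleted and 6.85 in control samples, near the median signal, and its other probe set differed by 0.30. Mmp9 was at 0.34 without control replicate 3, and Mmp3 turned to 0.13 without control replicate 1. Of 12 serum response targets, on which Elk1 and Elk3 act, 9 were higher and 3 lower (median 0.04), and Junb, Nr4a1 and Srf differed by 0.22, 0.21 and -0.19. Without deleted replicate 3 Junb was at 0.02 and Nr4a1 at -0.01, and without control replicate 3 Srf was at -0.03. Of 6 measured GABP targets 2 were higher and 4 lower (median -0.04), and Cox5b, a subunit of the respiratory chain, Tfb1m and Tfam, both of mitochondrial transcription, differed by -0.16, -0.15 and -0.06. Without control replicate 3 they were at -0.03, 0.08 and 0.07. Of all 18 probe sets of these genes 0 had an unadjusted p under 0.05 in limma (2.07% of all probe sets) and 2 did not overlap (6.44%). The 2 were a dimmer one of Tfam at 0.26 and a dimmer one of Skp2, a cell cycle gene named after its values were seen, at -0.35. The median over all genes was 0.004.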

How the data were processed

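Primary mammary endothelial cells were sorted with a CD31 antibody, and amplified RNA of 6 samples was hybridized to Affymetrix mouse expression arrays, 1 array and 1 color per sample. Per the study, they were biological replicates. The authors deposited log2 values made by RMA, which corrects background, normalizes arrays by quantiles and summarizes probes. The sources used here give no version of RMA, which compresses differences at dim probe sets. After 64 array controls were dropped from 45101 probe sets, 45037 were tested (34945 naming 1 gene, 932 several and 9160 none). Names came from the platform annotation, and 34741 probe sets were matched to RefSeq genes by gene number. Array medians lay between 7.02 and 7.07, and the number of arrays limits the precision. At most 0.218% of values were equal between any pair of arrays.

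Groups came from the genotype labels. For control samples 1 label denies the oncogene that their genotype names, and the genotype was used. The difference of each probe set was fitted without covariates by lmFit and eBayes (limma 3.58.1, R 4.3.3), two-sided, and all probe sets entered the Benjamini-Hochberg adjustment at 0.05. This step was run on simulated data with independent noise at each probe set. Such data lack the profiles that many genes share across these arrays, so the check does not cover them. The sources used here do not name the test behind the study's own thresholds. The 10 genes and the gene lists were chosen with earlier results of these data known. Named were the 10 genes with every probe set, of each related list the 3 genes with the largest difference and any without overlap between groups, for Ets2, Erg, Fli1 and Ets1 the 3 genes of most similar profile, and 6 cell markers. For marker lists only these 6 and the counts are given. Lists of lymphocyte, lymphatic, platelet and adipocyte markers, measured at 6, 5, 4 and 3 genes, had median differences of 0.25, -0.61, -0.05 and -0.06, and the epithelial and pan-leukocyte lists of -0.14 and -0.41. With 1 array left out these medians ranged from 0.09 to 0.51, -0.85 to -0.29, -0.23 to 0.03, -0.30 to 0.17, -0.31 to -0.04 and -0.58 to -0.23, in the same order. The alternatives were a trended and robust prior, a filter at the median signal, array weights, unmoderated tests, median centring and quantile normalization once more. Others were a replicate block by the identifier number in the sample titles, the mean of all probe sets of a gene and leaving out each array.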

Additional observations from a re-analysis of the deposited data

How the results depend on the processing

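No Ets probe set passed an adjusted p under 0.05 in limma in any setting tried, and the lowest adjusted p of one that was followed through all settings was 0.615. The dimmer Etv6 and the dimmest Elf2 probe set kept their sign wherever they were fitted, but their unadjusted p did not stay under 0.05. Leaving out 1 array gave 0.017 to 0.078 for Etv6 and 0.0052 to 0.10 for Elf2 in limma. For Elf2 it was also 0.052 with a trended and robust prior and 0.055 in the unmoderated test. In limma with a fixed replicate block their unadjusted p was 0.052 and 0.126 (differences 0.50 and 0.34). Elk1 had no change of sign, though its difference was 0.0017 with that block. The other brightest probe sets changed sign in at least 1 setting. With array weights the differences were 0.052 for Elf1, -0.0030 for Elf2 and -8.5e-05 for Gabpa. Control replicate 2 had a weight of 8.3 there, against 0.38 to 0.99 for the other arrays, so the weighted control mean rests mostly on that array. Centring gave 0.016 for Ets1, and the mean of all probe sets of a gene gave 0.18 for Ets1 and -0.25 for Erg. A pair of identifier numbers in the sample titles occurs in both groups, but the labels do not say what the numbers stand for. Same-numbered arrays deviated together with a correlation of 0.17 and -0.02. Control replicate 3 and deleted replicate 3 each carry a number found only once. With the number as a fixed replicate block the differences therefore rest on replicates 1 and 2 of each group alone. They were -0.083 for Ets2, -0.35 for Fli1, -0.027 for Elk3, -0.16 for Etv6 and -0.15 for Gabpa. With a random replicate block Etv6 was at -0.0020. With 1 array left out the differences ranged from -0.092 to 0.069 for Ets1, -0.039 to 0.081 for Ets2, -0.073 to 0.17 for Erg, -0.11 to 0.48 for Fli1, -0.12 to 0.10 for Etv6, -0.18 to 0.18 for Elf1 and -0.092 to 0.26 for Gabpa. The count of the 27 probe sets at an unadjusted p under 0.05 was 1 with a trended and robust prior (2.06% of all probe sets) and 1 unmoderated (2.58%). It was 3 with array weights (7.87%) and 2 with a fixed replicate block (8.14%). Those 2 did not include the Etv6 and Elf2 probe sets named above. With 1 array left out the count was 0 to 3. With 1 array left out the count of a fold over 2 was 0 to 1, the 1 being Erg without deleted replicate 2 (0.424% of all probe sets). The count without overlap was 2 to 12. Where a group has only a pair of arrays, more probe sets are free of overlap by construction. The 12 of 27 without deleted replicate 2 were still a larger share than the 18.7% of all probe sets in that setting. Deleted replicate 2 read below the mean at 23 of the 27, and its part in that count was not tested. The cause of the other shifts was not tested.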
